A study of Mus musculus with 2 samples.

Results

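Cxcl1, Cxcl2, Cxcl3, Cxcl5 and Cxcl15, 5 genes of the chemokines that attract neutrophils through the receptor CXCR2, and Cxcr2 itself were followed through the cells of mouse pancreatic tumours. They were chosen by symbol, with no measured value in the choice, and all 6 were among the 32285 genes of each count matrix. The tumours grew from KPC pancreatic cancer cells implanted orthotopically and were taken at day 21. The control library came from Porcnfl/fl littermates, labelled WT, and the knockout library from Csf1r-Cre;Porcnfl/fl mice, labelled KO. Both groups therefore carried the floxed Porcn alleles and differed by the Cre. Porcn encodes the enzyme that lipidates Wnt proteins before secretion, and the design asks what follows in the tumour when myeloid cells cannot secrete Wnt. Csf1r-Cre acts mainly in macrophages and monocytes and is known to recombine in neutrophils as well. Each library held the pooled tumours of 5 mice, so every difference below lies between 2 libraries, the spread between mice is unknown, and no test between the genotypes was possible. The ages of the mice were not given in the sources used here.

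CXC chemokines that carry a glutamate-leucine-arginine motif ahead of their first cysteines bind CXCR2 on neutrophils and draw them from blood into inflamed tissue. Epithelial cells, stromal cells and myeloid cells make them after signals such as interleukin 1, tumour necrosis factor or interleukin 17, largely through the transcription factor NF-kB, and their short-lived mRNAs can rise and fall quickly. In pancreatic cancer CXCR2 ligands are known for bringing neutrophils into the tumour bed. Cxcl15 is a mouse neutrophil attractant first described in lung epithelium, and its receptor is less firmly established.

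The control library held 173934025 unique molecular identifiers (UMIs) over 13766 barcodes, and the knockout library held 137527647 UMIs over 12251 barcodes. After filtering, 11516 and 10467 cells were kept, and 38 kept barcodes occurred in both libraries. Levels are given as UMIs of a gene per 1000000 UMIs of the cell class (CPM), and intervals in parentheses are exact 95% intervals for counting error only. Ratios are knockout over control. They were given for the 6 classes that reached 100 cells in both libraries, and for genes with at least 20 UMIs in the class. A ratio was called past a fold of 2 when it reached 2 or 0.5. The classes, clustered without the 6 genes and named from markers, were epithelial/tumour-like (9438 control and 5737 knockout cells), fibroblast-like (401 and 714), monocyte/macrophage-like (513 and 552), neutrophil-like (293 and 185), plasma cell-like (133 and 239) and T cell-like (190 and 1622). The labels call the cells tumour-infiltrating, yet most of the kept cells carried the markers of tumour cells. Mesothelial-like cells (269 and 49) and acinar-like cells (44 and 366) fell short of that number in 1 library. Porcn had 8 UMIs in control and 4 in knockout monocyte/macrophage-like cells and 0 in neutrophil-like cells of both libraries, and 3′ reads can also count a recombined allele, so these data did not check the deletion.

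The 5 chemokine genes lie in 1 cluster on mouse chromosome 5, all on the plus strand of GRCm38. In order these are Cxcl5 (chr5:90759360-90761624), Cxcl3 (chr5:90786103-90789600), Cxcl15 (chr5:90794534-90803067), Cxcl1 (chr5:90891241-90893115) and Cxcl2 (chr5:90903871-90905938). The platelet chemokine genes Ppbp and Pf4 lie between Cxcl5 and Cxcl3. Cxcr2 lies on chromosome 1 (chr1:74153989-74161246). Cxcl15 overlaps a miRNA gene, Gm24322, on the other strand. Of the 1810 stretches of 50 bases in the Cxcl2 transcript, 61 also occur in Cxcl3 (3.37%), so some reads of that pair could not have been told apart. The other pairs of the 6 transcripts shared none.

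The stretches ahead of the start sites are shown because 3 of the ligands share 2 words there. RefSeq promoter windows on GRCm38.p6 matched 5 of the 6 genes. In the 250 bases ahead of each start, words of at least 8 bases held by at least 3 of the 5 genes were searched on both strands. There were 2 such words, GGGAATTTCCC, which has the form of an NF-kB site, and ATAAAAGG, which has the form of a TATA box, and they do not overlap. Both were found in Cxcl1, Cxcl2 and Cxcl3 and neither in Cxcl15 or Cxcr2. The first word began 71, 97 and 73 bases before the starts of these 3 genes, and the second 34, 57 and 29 bases before. These starts are those of the RefSeq windows. The Cxcl2 window ends at 90903898, past the gene start of 90903871 given above, so its larger distances depend on the start used. Of 32851 windows of that length in the table, 14 held the first (0.0426%) and 507 the second (1.54%). The last 110 bases before the start of 4 ligand genes follow, 5′ to 3′ on the plus strand, with the words in capitals. A match is a description of letters and was not tested as a binding site. Only exact matches were counted, so the letters tataaag in the Cxcl15 stretch were not.
Cxcl1 (chr5:90891135-90891244): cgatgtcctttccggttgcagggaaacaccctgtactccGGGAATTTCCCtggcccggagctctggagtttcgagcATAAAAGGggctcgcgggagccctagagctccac
Cxcl2 (chr5:90903789-90903898): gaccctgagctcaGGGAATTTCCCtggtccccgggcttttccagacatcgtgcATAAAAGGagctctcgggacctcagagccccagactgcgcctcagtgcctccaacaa
Cxcl3 (chr5:90785991-90786100): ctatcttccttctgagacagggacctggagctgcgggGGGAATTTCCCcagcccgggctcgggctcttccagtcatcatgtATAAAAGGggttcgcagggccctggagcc
Cxcl15 (chr5:90794424-90794533): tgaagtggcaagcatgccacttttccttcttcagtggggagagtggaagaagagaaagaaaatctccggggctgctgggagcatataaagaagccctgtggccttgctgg

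The ligands fell into 3 patterns by the cells that held their transcripts. Most Cxcl1 and Cxcl15 UMIs lay in tumour-like cells, most Cxcl2 and Cxcl3 UMIs in myeloid classes, and most control Cxcl5 UMIs in the mesothelial-like class. That class also carried fibroblast markers, and its Cxcl5 share was much lower when each cell was named from its own markers, as given below. Tumour-like cells also held 150038245 of the 168741010 control UMIs of all genes, and 98380813 of 129252602 in knockout. Against that, control Cxcl1 was not enriched in them, at 35.3 CPM beside 36.0 over all kept cells. In knockout it was 27.4 beside 24.1 CPM. Cxcl15 was 136.7 beside 124.1 CPM in control and 99.4 beside 82.3 in knockout. Epithelial/tumour-like cells held 87.2% (86.4 to 88.1) of the 6075 Cxcl1 UMIs in control and 86.3% (85.1 to 87.5) of 3120 in knockout. They held 97.9% (97.7 to 98.1) of 20947 Cxcl15 UMIs in control and 91.9% (91.4 to 92.4) of 10633 in knockout. Neutrophil-like cells held 63.3% (62.2 to 64.4) of 7723 Cxcl2 UMIs in control and 80.9% (80.0 to 81.7) of 9150 in knockout. Monocyte/macrophage-like cells held 20.7% and 10.3% of them. The same pair of myeloid classes held 36.3% (neutrophil-like) and 40.8% (monocyte/macrophage-like) of the 608 Cxcl3 UMIs in control, and 58.5% and 24.9% of the 289 in knockout. With the strict cell filter the neutrophil-like shares of Cxcl2 and Cxcl3 were much lower in both libraries, as given in the closing section. Neutrophil-like cells held 93.8% (91.3 to 95.7) of 514 Cxcr2 UMIs in control and 91.3% (87.0 to 94.5) of 241 in knockout.

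**Figure D1:**
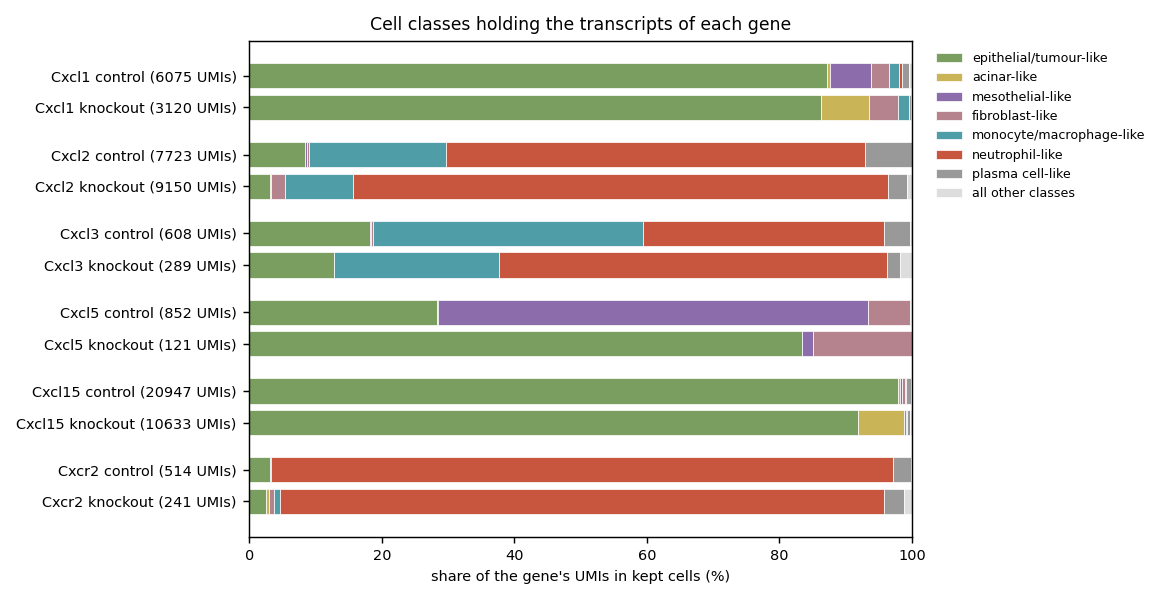
Share of each gene's UMIs in kept cells (%) held by each cell class, 1 bar per gene and library, with the number of UMIs beside the name. Tumour-like cells (green) fill most of the Cxcl1 and Cxcl15 bars, neutrophil-like cells (red) most of the Cxcl2 and Cxcr2 bars, and mesothelial-like cells (purple) 65.0% of control Cxcl5 against 1.65% in knockout.

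Over all kept cells 1 of the 6 genes was higher in the knockout library. Cxcl2 stood at 45.8 CPM in control and 70.8 in knockout, a ratio of 1.55 (1.50 to 1.59). Cxcl1 went from 36.0 to 24.1 CPM, a ratio of 0.670 (0.642 to 0.700), and Cxcl15 from 124.1 to 82.3 CPM, a ratio of 0.663 (0.647 to 0.678). For Cxcl3 the ratio was 0.621 (0.538 to 0.715), for Cxcl5 0.185 (0.152 to 0.225) and for Cxcr2 0.612 (0.523 to 0.715). These values mix levels within cells with the make-up of each library, so the classes are taken in turn.

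**Figure D2:**
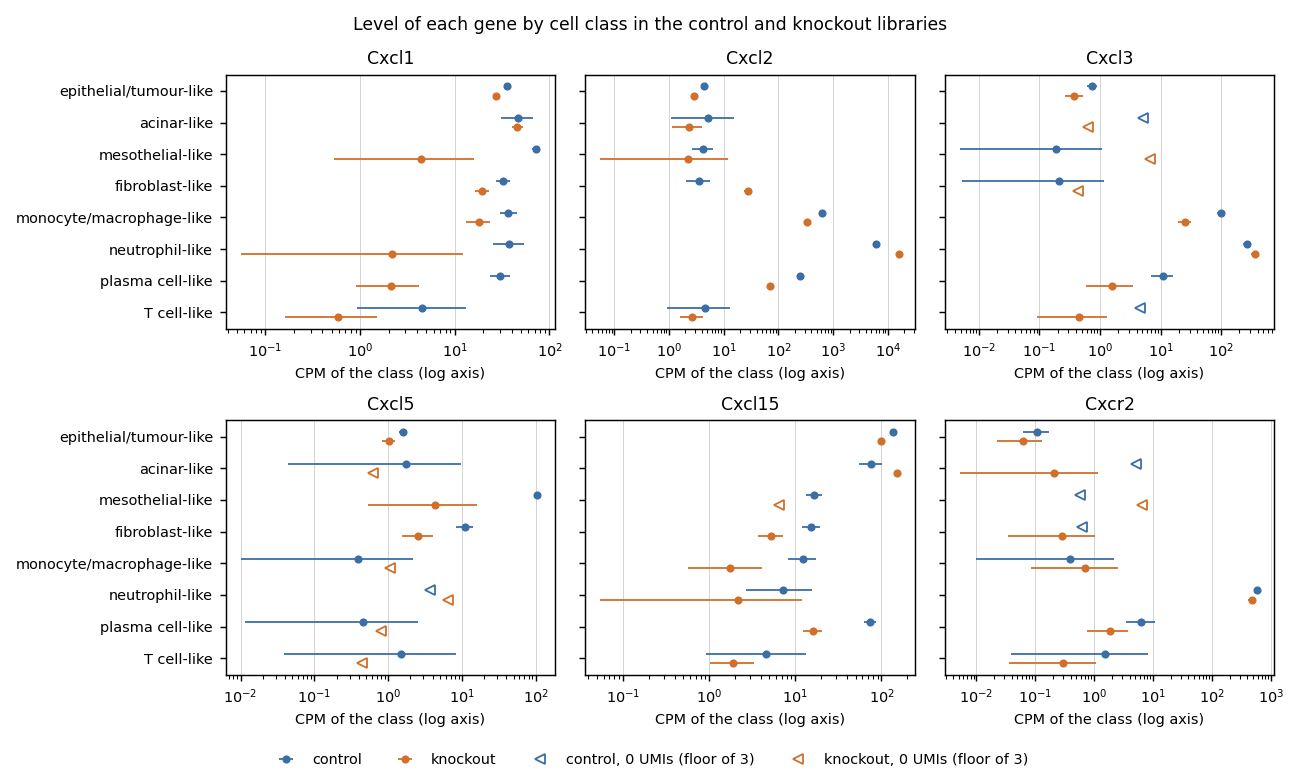
Level of each gene in 8 cell classes as CPM of the class on a log axis, control in blue and knockout in orange, with exact 95% counting intervals; open triangles mark classes with 0 UMIs at their floor of 3 counts. Cxcl2 and Cxcr2 peak in neutrophil-like cells, Cxcl5 in control mesothelial-like cells, and Cxcl1 spans 7 of the 8 control classes between 30.1 and 72.0 CPM, with T cell-like cells at 4.52.

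Cxcl1, the mouse counterpart of the growth-regulated chemokines that draw neutrophils to injured epithelium, was lower in knockout tumour-like cells. Its level was 35.3 CPM (34.4 to 36.3) from 5299 UMIs in control and 27.4 CPM (26.4 to 28.4) from 2694 UMIs in knockout. The ratio was 0.775 (0.740 to 0.812). No single cell carried this, since the richest control cell held 66 UMIs and the richest knockout cell 28. Without adjusting for depth 18.3% and 17.5% of tumour-like cells had a Cxcl1 UMI. After thinning each cell to 1000 UMIs the shares were 2.95% (2.62 to 3.31) of 9389 cells and 2.08% (1.73 to 2.49) of 5710 cells, at median depths of 13290.5 and 14988 UMIs per cell before thinning. T cell-like cells, which should lack the gene, gave 0.552% of 181 cells and 0.0630% of 1588 cells, at 2821.5 and 3342 UMIs. Weighting the tumour subclusters alike in both libraries left the ratio at 0.793.

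Cxcl1 was not restricted to tumour cells. In control its highest class was mesothelial-like at 72.0 CPM (64.9 to 79.7), and in knockout the acinar-like class at 45.9 CPM (40.1 to 52.4), which had 46.6 CPM in control. Mesothelial-like cells had 378 UMIs in control and 2 in knockout, where the level was 4.37 CPM (0.530 to 15.8) in 49 cells, too few to compare. Fibroblast-like cells had 32.4 CPM in control and 19.5 in knockout, a ratio of 0.602 (0.475 to 0.762). Monocyte/macrophage-like cells had 36.8 and 17.9 CPM from 93 and 51 UMIs, a ratio of 0.486 (0.338 to 0.690). Over 10 alternatives that ratio ranged from 0.201 to 0.847, the latter with the macrophage subclusters weighted alike. Summed tumour markers stood at 555 and 244 CPM in macrophage-like and 489 and 222 CPM in fibroblast-like cells. Their part in these Cxcl1 ratios was not tested. Neutrophil-like cells had 31 UMIs in control, 18 of them in 1 cell, and 1 UMI in knockout, so the ratio of 0.0577 (0.00141 to 0.346) rests on 7 control cells. With the strict cell filter it was 0.749.

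Cxcl15 had the plainest tumour pattern of the family and was also lower in knockout tumour-like cells. The control level was 136.7 CPM (134.8 to 138.6) from 20512 UMIs and the knockout level 99.4 CPM (97.4 to 101.3) from 9775 UMIs. Their ratio was 0.727 (0.709 to 0.745). After thinning, 10.4% of control and 7.34% of knockout tumour-like cells had a UMI, with intervals that did not overlap, against 0 of 181 and 0.315% of 1588 T cell-like cells. The count of 0 allows a share of up to 1.66%. Unthinned shares in tumour-like cells were 38.3% and 27.4%. Acinar-like cells, which make digestive enzymes, had a higher level in knockout, with 44 UMIs and a level of 75.9 CPM in 44 control cells, and 731 UMIs and a level of 151.2 CPM in 366 knockout cells. Tumour markers in acinar-like cells summed to 5809 and 6725 CPM, beside 6316 and 6456 in tumour-like cells, and acinar markers to 6525 and 25479 CPM, and their part in the acinar-like values was not tested. Macrophage-like cells had 31 and 5 Cxcl15 UMIs and fibroblast-like cells 74 and 37, at 12.3 and 1.75 CPM and at 15.3 and 5.27 CPM. Of these levels, both macrophage-like ones and the knockout fibroblast-like one were within the reach set here for free RNA, whose part was not tested. The summed tumour markers (9 genes) moved with these Cxcl15 levels. They summed to 555 CPM in control and 244 in knockout macrophage-like cells, and to 489 and 222 CPM in fibroblast-like cells. Of the 9, Cldn7 was at 0 in both knockout classes, and Cldn4 and Cldn7 in control macrophage-like cells. Their part in these ratios of 0.143 and 0.345 was not tested. In fibroblast-like cells 71 of the 74 and 29 of the 37 Cxcl15 UMIs lay in subcluster 8, whose leading genes included Cxcl15, Foxa2 and Vsig1, genes of epithelial cells. The Cxcl15 ratio within that subcluster was 0.683 (0.428 to 1.07), on 40 control and 26 knockout cells.

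Within the tumour class Cxcl15 differed widely between subclusters. Subcluster 3, which was named interferon-high and was led by genes of stress and hypoxia such as Mgarp, Hilpda and Hmox1, was low in Cxcl15, at 17.5 CPM in control and 13.1 in knockout. Subcluster 4, interferon-high and led by Ifit3 and Socs1, had 226.8 and 208.2 CPM. The gastric mucous-like subcluster 1, led by mucin genes among others, had 152.0 and 149.8 CPM, a ratio of 0.986 (0.950 to 1.024). The cycling subcluster 5 had 75.2 and 84.9 CPM, and the intestinal-like subcluster 8 had 117.3 and 29.8 CPM, a ratio of 0.254 (0.197 to 0.324). Subcluster 3 made up 12.9% of control and 28.9% of knockout tumour-like cells, while the unnamed subcluster 2, at 205.1 and 158.6 CPM, made up 31.3% and 12.8%. With the subclusters weighted alike the Cxcl15 ratio was 0.897 in place of 0.727. The same weighting left Cxcl1 nearly where it was, as given above.

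Cxcl1 also differed between these subclusters. It stood at 46.8 and 39.3 CPM in subcluster 1, at 46.7 and 36.9 in subcluster 4, and at 19.7 and 12.0 in subcluster 3, with ratios of 0.840, 0.792 and 0.608. Its highest level was in subcluster 10, of 43 control and 54 knockout cells led by the junction genes Epcam, Cldn3 and Cldn7, with 93 UMIs (111.6 CPM) in control and 78 UMIs in knockout, a ratio of 0.448 (0.327 to 0.612). Whether the cells of subcluster 10 were tumour cells or other epithelial cells was not tested. The intestinal-like subcluster 8 had more Cxcl1 in knockout, 14.9 against 22.7 CPM, a ratio of 1.52 (1.06 to 2.17), while its Cxcl15 was lower. Subcluster 7, led by Crabp2 and Bnc2, was higher in knockout for both genes, on 339 control and 34 knockout cells. Its Cxcl1 was 8.86 and 20.3 CPM, from 71 and 9 UMIs, and its Cxcl15 29.3 and 76.5 CPM, a ratio of 2.61 (1.76 to 3.75). Cxcl15 in subcluster 10 was 86.4 and 8.97 CPM, a ratio of 0.104 (0.0541 to 0.186). Single cells linked both genes only loosely. In thinned control tumour-like cells 14.8% (10.8 to 19.5) of cells with a Cxcl1 UMI also had a Cxcl15 UMI, against 10.2% (9.60 to 10.9) of cells without. In knockout the shares were 17.6% (11.3 to 25.7) and 7.12% (6.46 to 7.82).

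**Figure D3:**
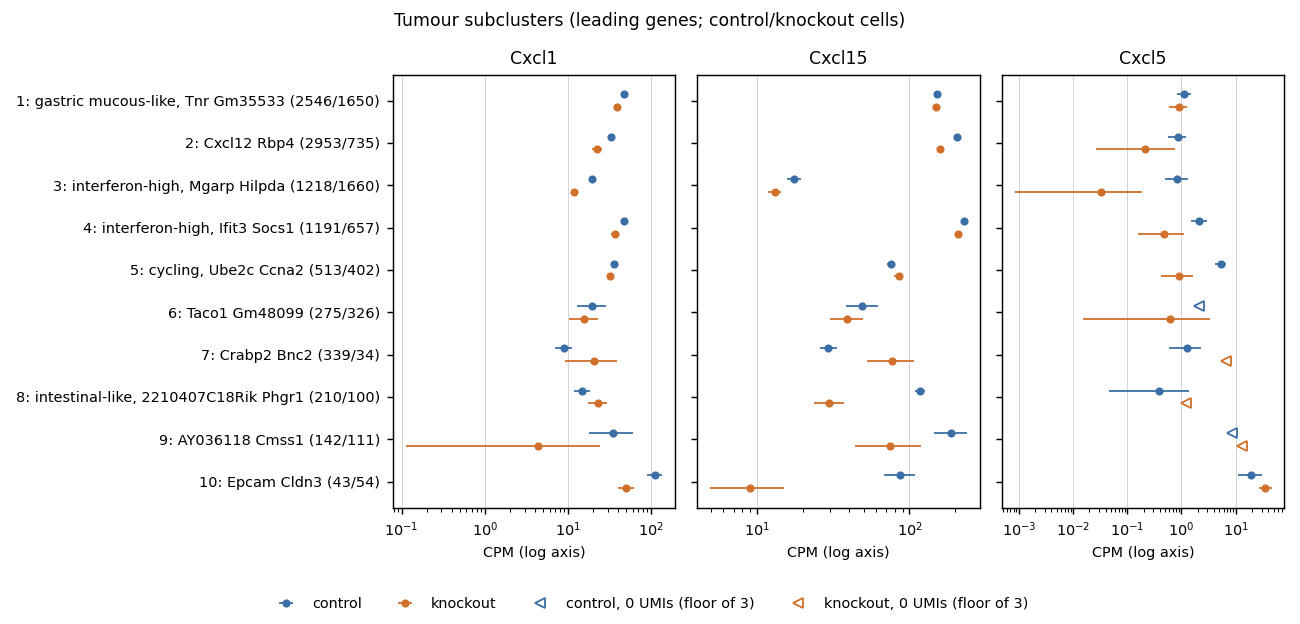
Cxcl1, Cxcl15 and Cxcl5 levels (CPM, log axis) in 10 of the 11 tumour subclusters with their leading genes and control/knockout cell numbers, control in blue and knockout in orange, bars exact 95% counting intervals, open triangles 0 UMIs at the floor; subcluster 11, of 8 cells in each library, is not drawn. Cxcl15 is 17.5 and 13.1 CPM in subcluster 3 and above 100 CPM in both libraries in subclusters 1, 2 and 4, and Cxcl5 is highest in subcluster 10.

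Cxcl5, an epithelial and mesothelial neutrophil attractant, showed the widest gap between the libraries, and it sat in the mesothelial-like class. That class, named for the cells that line serous surfaces, had 554 UMIs in 269 control cells, 105.5 CPM (96.9 to 114.7). In 49 knockout cells it had 2 UMIs, 4.37 CPM (0.530 to 15.8). The control UMIs came from 51 cells, the richest with 95. In the same class Cxcl1 had 378 and 2 UMIs and Cxcl15 had 87 and 0. The Cxcl15 level was 16.6 CPM in control, with a floor of 6.56 CPM in knockout. With 49 knockout cells the class was not compared, and whether it was poorly sampled or truly smaller cannot be told apart from 1 library. Mesothelial-like cells held 65.0% of all control Cxcl5 UMIs and 1.65% of the 121 in knockout. When each cell was named from its own markers, that control share was 14.8%. In this class the 9 fibroblast markers summed to 29276 CPM in control and 22872 in knockout, and the 8 mesothelial markers, none at 0, to 915 and 3623 CPM. Their part in the Cxcl5 values was not tested.

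Cxcl5 was also detected outside the mesothelial-like class, in few cells. Tumour-like cells had 241 UMIs in 68 of 9438 control cells and 101 UMIs in 31 of 5737 knockout cells, 1.61 and 1.03 CPM, a ratio of 0.639 (0.502 to 0.810). The control level was 1.52% of that of mesothelial-like cells, within the reach set here for free RNA, whose part was not tested. The richest control tumour-like cell held 62 of the UMIs, beside 78 UMIs of tumour markers and 14 of mesothelial markers. In the Epcam-led subcluster 10 Cxcl5 stood at 19.2 CPM in control and 35.2 in knockout, a ratio of 1.84 (1.04 to 3.43) from 16 and 55 UMIs. It was lower in knockout in subclusters 2, 4 and 5, with 30 and 2, 36 and 5, and 79 and 10 UMIs, of which 62 of the 79 lay in 1 cell. Those ratios were 0.252 (0.0292 to 0.994), 0.232 (0.0710 to 0.593) and 0.166 (0.0768 to 0.322), and subcluster 1 gave 0.793 (0.477 to 1.29). Fibroblast-like cells had 10.9 and 2.56 CPM from 53 and 18 UMIs, a ratio of 0.234 (0.129 to 0.406), and 30 of the control UMIs lay in 1 cell. Of the 53 and 18 UMIs, 36 and 2 lay in fibroblast-like subcluster 8, whose leading genes included epithelial ones, as given above. Neutrophil-like cells had 0 Cxcl5 UMIs in both libraries, at floors of 3.63 and 6.50 CPM.

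Cxcl2, the chemokine that macrophages and neutrophils release in acute inflammation, was higher in knockout neutrophil-like cells. The class had 4891 UMIs in control, 5925 CPM (5760 to 6093), and 7399 UMIs in knockout, 16021 CPM (15658 to 16390), from fewer cells. The ratio was 2.70 (2.61 to 2.80). The median cell held 3 Cxcl2 UMIs in control and 14 in knockout, and the upper quartile was 22 and 58. The richest cell held 4.38% and 3.60% of the UMIs, so the gap did not rest on 1 cell. After thinning, 54.1% (48.1 to 60.1) of 279 control cells and 69.4% (62.2 to 76.0) of 183 knockout cells had a UMI, at median depths of 1709 and 1874. T cell-like cells gave 0 of 181 and 0.252% of 1588.

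The Cxcl2 ratio differed between the neutrophil-like subclusters, in size and in direction. Subclusters 2, 3 and 4, named Retnlg-low tumour neutrophils from genes such as Ccl3, Ccl4 and Cd274, had the highest levels, at 11825, 15519 and 28557 CPM in control and 24072, 16928 and 36331 CPM in knockout. Their ratios were 2.04 (1.86 to 2.23), 1.09 (1.003 to 1.19) and 1.27 (1.20 to 1.35). Subcluster 1, led by Bmx, Cd101 and Lrg1, was on the other side, with 6135 CPM in control and 2050 in knockout, a ratio of 0.334 (0.271 to 0.408). The Retnlg-high subcluster 5, led by the granule genes Camp and Ngp, had 392 and 441 CPM, and subcluster 7, led by Camp and Elane of immature neutrophils, had 1 and 0 UMIs. Subcluster 6, led by Fcer1a and Gata2, genes of basophils and mast cells, had 10 control and 13 knockout cells with 1515 and 12815 CPM. Siglecf, also on the naming list of subclusters 2, 3 and 4, had 1 and 0, 4 and 3, and 0 and 1 UMIs in them. Their Retnlg was at 522 and 308, 0 and 33.5, and 752 and 775 CPM. It was at 3088 and 2050 CPM in subcluster 1 and at 265 and 12.7 CPM in subcluster 7.

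The mix of these subclusters differed between the libraries. Subclusters 2 and 4 made up 11.3% and 11.9% of control and 30.3% and 24.3% of knockout neutrophil-like cells, while subcluster 1 made up 35.8% and 15.1% and subcluster 5 14.3% and 3.78%. Subclusters 5 and 7 held 25.4% and 24.7% of the control class UMIs against 6.38% and 17.1% in knockout, and so weighed on the CPM of the whole class. With subclusters weighted alike the Cxcl2 ratio was 1.39, and without the subclusters led by Camp and by Fcer1a it was 1.73, both below the fold of 2. The mean of per-cell CPM gave 1.9996, just short of it. All alternatives run kept Cxcl2 higher in knockout neutrophil-like cells, up to 9.70 with the strict cell filter. S100a9, a naming marker of the class, stood at 92786 and 45250 CPM. Of other cells' markers in the class, the 10 for T cells summed to 31.5 CPM in control and 180 in knockout, and the 12 for macrophages to 682 and 667 CPM, and their part in the Cxcl2 ratio was not tested.

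**Figure D4:**
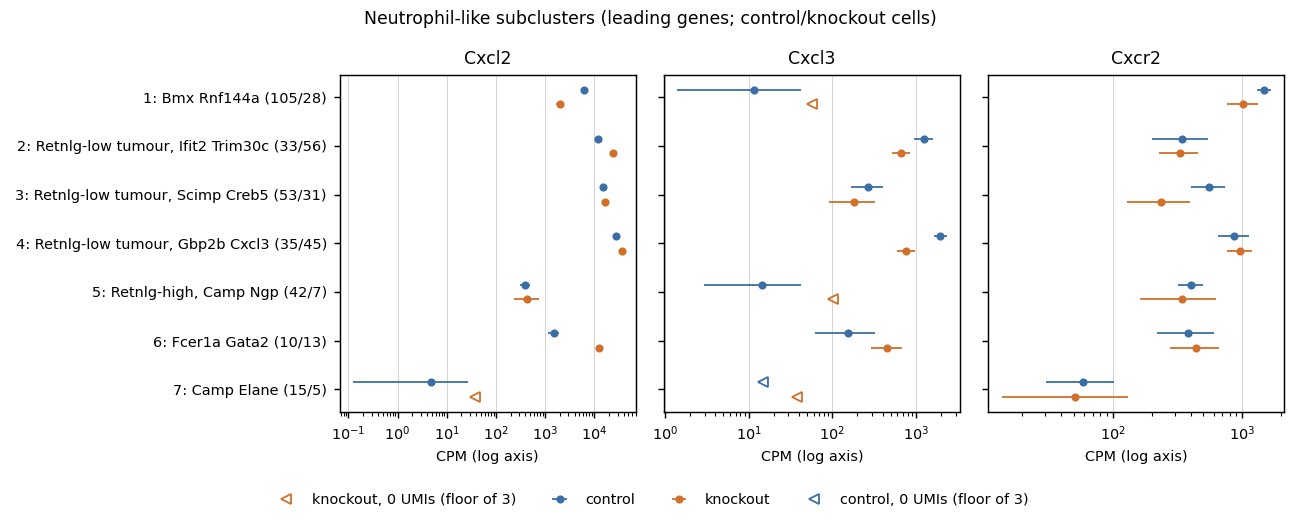
Cxcl2, Cxcl3 and Cxcr2 levels (CPM, log axis) in 7 neutrophil-like subclusters, with their leading genes and control/knockout cell numbers, control in blue and knockout in orange, bars exact 95% counting intervals, open triangles 0 UMIs at the floor. Cxcl2 is highest in subclusters 2, 3 and 4, Cxcl3 in 2 and 4, and Cxcr2 in subcluster 1 in both libraries at 1468 and 1015 CPM.

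Pooled over its subclusters, the monocyte/macrophage-like class had less Cxcl2 in the knockout library, while the subclusters differed in direction. The class had 1600 UMIs in control, 632.6 CPM (602.0 to 664.4), and 939 in knockout, 328.7 CPM (308.0 to 350.4). These levels were 10.7% and 2.05% of the neutrophil-like ones, the second within the reach set here for free RNA, whose part was not tested. The ratio was 0.520 (0.479 to 0.564), short of the fold of 2. Only 4 of 10 alternatives kept it short of that fold. The 10 ranged from 0.423 to 0.800, the last without the 1% of cells richest in Cxcl2. In control 6 cells held 57.2% of the UMIs, the richest with 303, and that cell had 17 UMIs of neutrophil markers beside 11 of macrophage markers. Thinned shares of cells with a UMI were 15.6% (12.6 to 19.1) and 10.4% (7.91 to 13.2). Subcluster 3, C1q macrophages with Arg1, had 1122 CPM in control and 625 in knockout, a ratio of 0.557 (0.499 to 0.621), and its share of the class was 32.7% and 13.8%. Subcluster 2 had 750 and 185 CPM, a ratio of 0.247 (0.170 to 0.351). C1q macrophages without Arg1 (subcluster 1) had 75.1 and 73.9 CPM. Ly6c2 monocytes (subcluster 4) had 310.9 and 448.6 CPM, a ratio of 1.44 (1.09 to 1.95), and made up 8.97% and 30.3% of the class. Subcluster 6, of 19 control and 4 knockout cells, had 12 and 49 UMIs, a ratio of 14.6 (7.64 to 30.1). Neutrophil markers over the whole class were at 350 and 524 CPM, with Ly6g at 0 in both libraries. Among them S100a8 was at 55.4 and 22.8 CPM and S100a9 at 15.8 and 16.1 CPM, and their part in the Cxcl2 ratio was not tested.

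Cxcl2 readings in the remaining classes were small or rested on few cells. Tumour-like cells had 4.32 and 2.87 CPM, a ratio of 0.664 (0.575 to 0.764), at 0.0729% and 0.0179% of the neutrophil-like level. Summed neutrophil markers (12 genes, none at 0) in tumour-like cells moved with it from 11.7 to 3.98 CPM, and their part in it was not tested. The richest tumour-like cell held 56 Cxcl2 UMIs beside 1 UMI of neutrophil markers, 34 of macrophage markers and 417 of tumour markers, and the part of these in the reading was not tested. Fibroblast-like cells had 17 UMIs in 11 control cells and 192 UMIs in 5 knockout cells, a ratio of 7.79 (4.74 to 13.7). Of those 192 UMIs 170 came from 1 cell that also held 65 UMIs of neutrophil markers and 253 of fibroblast markers, and 19 came from a second cell. Plasma cell-like cells had 539 and 263 UMIs, a ratio of 0.284 (0.244 to 0.329). All but 1 of the control UMIs lay in cluster 30, which also held 4818 control UMIs of S100a9 and 2488 of Krt19, a keratin gene. Neutrophil markers summed to 3965 and 160 CPM over the class, and their part in the ratio was not tested. In knockout 126 lay in 1 cell with 61 UMIs of neutrophil markers. That ratio turned above 1 under 4 of the alternatives. T cell-like cells had 3 and 18 UMIs, a ratio of 0.588 (0.172 to 3.12).

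Cxcl3, a close relative of Cxcl2, was lower in knockout monocyte/macrophage-like cells. The class had 248 UMIs in control, 98.1 CPM (86.2 to 111.0), and 72 in knockout, 25.2 CPM (19.7 to 31.7), a ratio of 0.257 (0.195 to 0.335). All alternatives run kept it past the fold of 2. The levels were 36.6% and 6.89% of the neutrophil-like ones, the second within the reach set here for free RNA, whose part was not tested. The control UMIs came from 35 of 513 cells, with 53 in the richest, and the knockout UMIs from 12 of 552. C1q macrophages with Arg1 held 217 of the control UMIs, at 188.8 CPM, and 20 of the knockout UMIs, at 28.5 CPM, a ratio of 0.151 (0.0903 to 0.239). Ly6c2 monocytes had 1 UMI in control and 38 in knockout, a ratio of 9.19 (1.55 to 372.5). Macrophages of the C1q type without Arg1 had 0 in both libraries, at floors of 5.24 and 3.69 CPM.

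In neutrophil-like cells the Cxcl3 ratio of the class and those of its subclusters differed in direction in part. The class stood at 267.7 CPM (233.6 to 305.4) from 221 UMIs in control and 365.9 CPM (312.8 to 425.4) from 169 UMIs in knockout, a ratio of 1.37 (1.11 to 1.68). In subclusters 2, 3 and 4 it stood at 1245 against 665 CPM, 268 against 184 CPM and 1958 against 763 CPM. Those ratios were 0.534 (0.373 to 0.765), 0.687 (0.301 to 1.48) and 0.390 (0.284 to 0.530), the middle interval including 1. Subcluster 6, of 10 and 13 cells, was higher in knockout, with 7 and 24 UMIs, a ratio of 2.93 (1.22 to 8.04). Weighting the subclusters alike gave 0.528, leaving out those led by Camp and by Fcer1a gave 0.839, and the mean of per-cell CPM gave 0.860. The other 8 of 11 alternatives kept it above 1, up to 11.4 with the strict cell filter. The direction for Cxcl3 in neutrophils was therefore not settled by these data, and in subclusters 2 and 4 Cxcl2 was higher and Cxcl3 lower in knockout. Thinned shares of neutrophil-like cells with a Cxcl3 UMI were 8.96% (5.88 to 12.9) and 9.29% (5.51 to 14.5).

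Co-detection of Cxcl3 with Cxcl2 was counted cell by cell. In thinned neutrophil-like cells 16.6% of 151 Cxcl2-positive control cells and 13.4% of 127 Cxcl2-positive knockout cells had a Cxcl3 UMI, against 0 of 128 and 0 of 56 cells without Cxcl2. In monocyte/macrophage-like cells the shares were 20.5% against 2.38% in control and 8.93% against 0.412% in knockout, so 10 of the 26 control and 2 of the 7 knockout cells with Cxcl3 had no Cxcl2 UMI. The pair shares some sequence, as given above, and the part of reads placed on either gene in this overlap was not tested. Tumour-like cells had 111 and 37 Cxcl3 UMIs, 0.740 and 0.376 CPM, a ratio of 0.508 (0.341 to 0.744). The richest cell held 58 of the control UMIs and had 78383 UMIs in all, with 34 of macrophage markers beside 417 of tumour markers. The control tumour-like cell richest in Cxcl2 had the same depth and marker counts, and so appeared to be the same cell. The part of these markers in the reading was not tested.

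Cxcr2, the receptor through which neutrophils answer most of these ligands, was lower per UMI in knockout neutrophil-like cells by a small margin. The level was 584 CPM (533 to 638) from 482 UMIs in control and 476 CPM from 220 UMIs in knockout, a ratio of 0.816 (0.692 to 0.959). A Cxcr2 UMI was found in 49.8% (43.8 to 55.8) of 279 thinned control cells and 33.9% (27.1 to 41.2) of 183 thinned knockout cells, against 0.0213% and 0.0175% of tumour-like cells. Without thinning the shares were 63.5% and 54.1%. Subcluster 1 had the highest level, 1468 CPM in control against 1015 CPM in knockout, a ratio of 0.692 (0.504 to 0.933). Subcluster 4 had 862 and 963 CPM, which in knockout did not differ from subcluster 1 beyond counting error, subcluster 3 had 548 and 234 CPM, and subcluster 7 had 58.9 and 50.7 CPM. Subcluster 1 thus paired the highest Cxcr2 with less Cxcl2 than the Retnlg-low subclusters. Among Cxcl2-positive thinned cells 55.6% had Cxcr2 in control and 32.3% in knockout, and among Cxcl2-negative cells 43.0% and 37.5%, with overlapping intervals in both libraries.

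**Figure D5:**
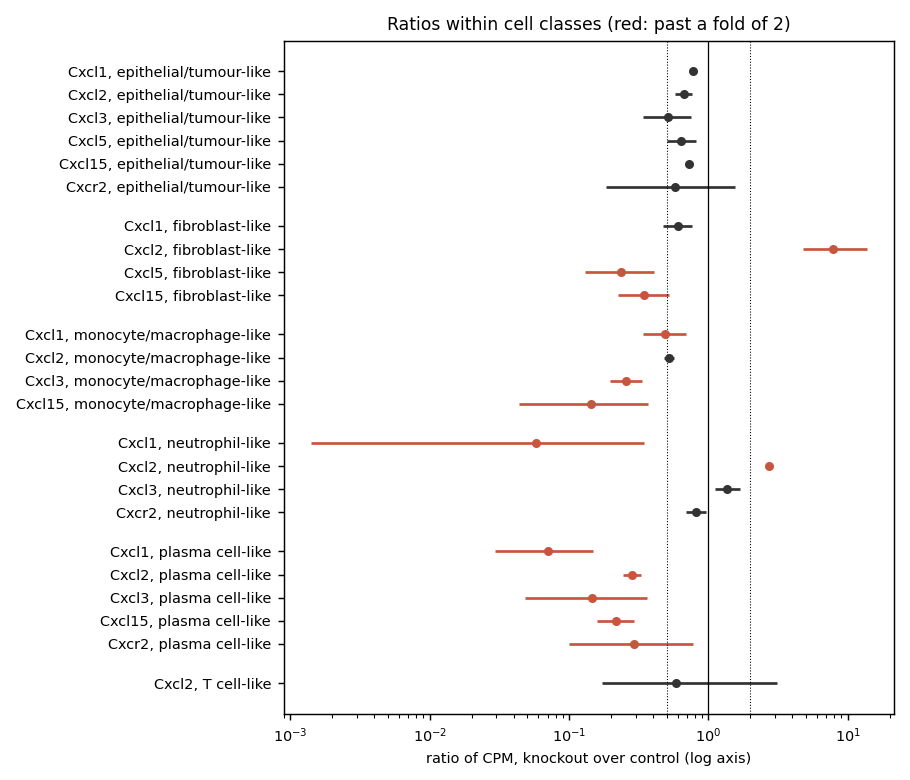
Ratio of CPM, knockout over control, on a log axis for every class and gene compared, with exact 95% counting intervals; dotted lines mark a fold of 2 and red points lie past it. The 6 tumour-like ratios lie between 0.508 and 0.775, and Cxcl2 in neutrophil-like cells is at 2.70. Of the 6, only Cxcl1 and Cxcl15 had control tumour-like levels above the reach set here for free RNA.

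Counts past the fold of 2 are read against all genes tested in the class. In tumour-like cells 0 of 6 members passed, and 7.95% of 17404 genes did (5.02% higher and 2.93% lower), with a median ratio of 0.651 for the members and 0.959 for all genes. Control levels of Cxcl2, Cxcl3, Cxcl5 and Cxcr2 in this class were within the reach set here for free RNA, whose part was not tested. Cxcr2 rested on 16 and 6 UMIs, and Cxcl1 and Cxcl15 had ratios of 0.775 and 0.727. In monocyte/macrophage-like cells 3 of 4 members were past it in the lower direction (Cxcl1, Cxcl3 and Cxcl15), as were 4.12% of 10356 genes, and 0 in the higher direction, against 2.93%, so that 7.05% passed in either. Cxcl15 rested on 31 and 5 UMIs there, at 8.97% and 1.16% of its highest class, and knockout Cxcl3 was at 6.89%. Those levels were within the reach set here for free RNA, whose part was not tested. Neutrophil-like cells had 1 of 4 higher (Cxcl2), against 7.48% of 5785 genes, and 1 lower (Cxcl1), against 9.4%, with 16.9% in either direction. Fibroblast-like cells had 1 of 4 higher (Cxcl2), against 5.19% of 12648 genes, and 2 lower (Cxcl5 and Cxcl15), against 2.94%, with 8.13% in either. Each of these lower calls was lost under 2 of 10 alternatives, where the Cxcl5 ratio reached 0.549 and the Cxcl15 ratio 0.715, and Cxcl5 went down to 0.0445 under another. Fibroblast-like subcluster 8 held 36 of the 53 control UMIs of Cxcl5 and 71 of the 74 of Cxcl15. It had 40 of 401 control and 26 of 714 knockout cells. Within it the Cxcl5 ratio was 0.0929 (0.0108 to 0.361) and the Cxcl15 ratio 0.683 (0.428 to 1.07). Plasma cell-like cells had 5 of 5 lower, against 22.6% of 11098 genes, with 6.64% higher and 29.3% in either. Cluster 30 held 64 of the 66 control UMIs of Cxcl1, 538 of 539 of Cxcl2 and 161 of 162 of Cxcl15. It also held all 24 of Cxcl3 and all 14 of Cxcr2. This cluster had 80 of the 133 control and 41 of the 239 knockout cells. Within it control and knockout levels were 41.0 and 9.19 CPM for Cxcl1, 345 and 177 for Cxcl2, and 15.4 and 0 for Cxcl3. They were 103 and 57.8 CPM for Cxcl15 and 8.98 and 6.57 for Cxcr2. The part of cluster 30 was not tested. T cell-like cells had 0 of 1, against 12.9% of 11254 genes, 8.78% higher and 4.08% lower.

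Other genes of the pathway were counted by lists, to be read against the shares of all genes past the fold. Those were 7.48% higher and 9.4% lower in neutrophil-like cells and 2.93% and 4.12% in monocyte/macrophage-like cells. In tumour-like cells they were 5.02% and 2.93%. Of the genes induced by NF-kB or that limit chemokine mRNA, 4 of 16 were past the fold of 2 in the higher direction in knockout neutrophil-like cells, 0 were lower and 12 lay between, with a median ratio of 1.56 against 0.946 for all genes. The highest were Atf3, a stress-response transcription factor, at 2.77 and Nfkbia, the NF-kB inhibitor, at 2.65, and the lowest were Cebpd at 0.910 and Birc3 at 1.12. Of the inducing cytokines and their receptors 4 of 7 were higher there and 0 lower, led by the interleukin 1 antagonist gene Il1rn at 3.45 and Tnf at 2.87, with Il17ra at 0.781 and Tnfrsf1a at 0.908 at the other end. In monocyte/macrophage-like cells 0 of 16 NF-kB genes passed, from Relb at 1.69 and Nfkbia at 1.50 down to Nfkb2 at 0.802 and Ier3 at 0.944. Of 9 inducing genes 1 was lower there, Il6 at 0.354, with Il1a at 0.593 next and Il1rn at 1.63 and Il17ra at 1.62 highest. Tumour-like cells had 0 of 16 NF-kB genes past the fold, from Atf3 at 1.44 and Nfkbia at 1.23 to Icam1 at 0.699 and Cebpd at 0.732. Their inducing genes had 1 of 11 higher, Il6 at 2.50, and 1 lower, the growth factor gene Csf2 at 0.451, with Tnf at 1.46 and Il1b at 0.629 next to them.

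Of 18 genes by which neutrophils are recruited and respond, 3 were past the fold in the lower direction and 0 higher in knockout neutrophil-like cells, with a median ratio of 0.813. Of all genes in that class 9.4% were lower and 7.48% higher, and the shares for other classes are given above. The 3 lower ones were the formyl peptide receptor gene Fpr1 at 0.265 and the alarmin genes S100a8 at 0.466 and S100a9 at 0.488, the last pair also naming markers of the class. Ccr1 at 1.30 and Fpr2 at 1.23 were highest. CXCR2 signalling genes had 0 of 12 higher and 1 lower, Plcb2 at 0.426, a phospholipase, and Dock2 at 1.03 was highest. In monocyte/macrophage-like cells 3 of 16 recruitment genes were higher, among them Fpr2 at 2.58, and 1 lower, S100a8 at 0.411, with Itgb2 at 0.675. Their signalling genes had 0 of 12 past the fold in either direction, among them Pik3cg at 1.25 and, lowest, Grk2 at 0.793 and Plcb2 at 0.914. Tumour-like cells had 5 of 15 recruitment genes higher and 5 lower, among the first Selplg at 3.81 and among the second S100a8 at 0.227 and S100a9 at 0.246. Their signalling genes had 4 of 11 higher, led by the leukocyte gene Dock2 at 5.52 and Pik3cg at 2.88, with Arrb2 at 0.761 and Grk2 at 0.853 lowest. The 10 T cell markers, none at 0, summed to 2.42 CPM in control and 13.4 in knockout tumour-like cells, and their part in these counts was not tested.

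CXC chemokines without the motif, which act on other receptors, were counted in the same way, against the shares of all genes given above for each class. In neutrophil-like cells 2 of 2 were higher, Cxcl9 at 17.9 and Cxcl10 at 6.45, both inducible by interferon. Monocyte/macrophage-like cells had 3 of 6 higher, led by Cxcl13 at 4.56 and Cxcl9 at 3.14, and 1 lower, Cxcl12 at 0.312, with Cxcl14 at 1.05. Tumour-like cells had 1 of 6 higher, Cxcl13 at 3.28, with Cxcl9 at 1.94, and Cxcl12 at 0.659 and Cxcl16 at 0.880 lowest. Plasma cell-like cells had 1 of 5 higher, Cxcl13 at 58.7 from 1 and 101 UMIs, and 3 lower, of which Cxcl10 at 0.122 was lowest. Ppbp, a further CXCR2 ligand made by platelets and macrophages, had 20 UMIs in control and 0 in knockout monocyte/macrophage-like cells and a ratio of 1.04 in tumour-like cells.

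The same lists were counted in fibroblast-like cells, where 5.19% of all genes were higher and 2.94% lower. Of 16 NF-kB genes 0 were higher and 2 lower, Ier3 at 0.298 and Tnfaip3 at 0.468, with Rel at 1.25 and Birc3 at 1.23 highest. Inducing genes had 1 of 7 higher, Il1b at 7.24, with Il6 at 1.90, and Il17rc at 0.839 lowest. Recruitment genes had 3 of 5 lower, among them the decoy receptor gene Il1r2 at 0.342 and S100a9 at 0.353, signalling genes 2 of 8 higher, led by Rac2 at 5.35, and chemokines without the motif 1 of 6 higher, Cxcl14 at 2.72, and 2 lower, Cxcl13 at 0.260 and Cxcl10 at 0.460. T cell markers summed to 1.86 and 34.6 CPM and neutrophil markers to 118 and 188 CPM in fibroblast-like cells, with Cd3d, Cd8a, Cd4 and Foxp3 at 0 in control, and their part in these counts was not tested. The Cxcl1 of fibroblast-like cells moved between subclusters, from 52.5 to 3.09 CPM in subcluster 1 and from 76.5 to 22.5 in subcluster 5, but from 4.41 to 92.9 CPM in subcluster 3, led by Chrm3 and Crocc2, from 2 and 87 UMIs, a ratio of 21.1 (5.66 to 176.8). These shifts rest on few cells, since 31 of the 51 UMIs of control subcluster 1 and 23 of the 29 of control subcluster 5 lay in 1 cell each. In plasma cell-like cells the lists for inducing cytokines, NF-kB genes and recruitment had 7 of 9, 6 of 16 and 8 of 14 members lower, where 22.6% of all genes were lower and the median ratio of all genes was 0.794. In that class neutrophil markers summed to 3965 and 160 CPM and tumour markers to 3684 and 880 CPM, cluster 30 included, and their part in the counts was not tested. In T cell-like cells they had 1 of 5, 1 of 16 and 1 of 8 higher, where 8.78% of all genes were higher.

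The genes whose levels ran most like each member over the 35 clusters with at least 50 cells were named by Pearson's r of log2(CPM + 10), as a description with no test, since clusters share libraries and depth. For Cxcl2 they were Acod1, the itaconate enzyme of activated myeloid cells (r = 0.97), Clec4d, Hcar2, Nlrp3 and Clec4e (r = 0.94). Those for Cxcl3 were E230016K23Rik (r = 0.95), Gm6209, Ptgs2os2, Hcar2 and Il1a. Cxcr2 ran with Gm20406 (r = 0.99), Mmp9, Il1f9, Hdc and Gm39321, and Mmp9 and Hdc had served to name the neutrophil-like class. Cxcl15 ran with Gm35533 (r = 0.96), Gm10629, Arl14, Aldh3a1 and Stard10. Cxcl5 ran with Col4a6 (r = 0.98), a basement membrane collagen gene, Gata5, Sez6l, Cdh3 and Gm49708. Cxcl1 had the least close neighbours, Hbegf (r = 0.83), Clu, Wsb2, Retreg2 and Spp1 (r = 0.80). Hcar2 stood on the lists of both Cxcl2 and Cxcl3.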

How the data were processed

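Single-cell suspensions were digested with collagenase V and DNase I, red cells were lysed and live cells enriched, and the 10x Genomics 3′ v3.1 chemistry was used for the libraries, per the labels' protocols. The deposited matrices hold raw counts of UMIs per gene and barcode. The file headers name Cell Ranger 8.0.0, while the submitters' processing notes name Cell Ranger 3.1.3 and the mm10 build. Gene positions came from GENCODE on GRCm38 by identifier.

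Barcodes under 500 genes or over 15% mitochondrial UMIs were removed (84.7% of control and 88.2% of knockout barcodes passed), and Scrublet (scanpy 1.11.5, expected rate 0.08) removed 148 and 341 doublets. Median depth was 12167.5 and 10109 UMIs per cell. Each cell was scaled to 10000 counts before a log transform. From the 2000 genes of highest variability, with the 6 members left out, came 30 principal components, 15 neighbours and Leiden clusters at resolution 1 (2 iterations, seed 0), without batch correction, and leukocyte clusters were clustered again. Subclusters used resolution 0.5. Clusters were named "X-like" from fixed markers, with at least 3 detected (a UMI in 10% of cells and 2 times the 25th percentile of clusters), unless another class had more markers in the leading 10 genes, or none led and a second class lay within 0.05. The scoring was set after clusters had been seen. 1 cluster of 101 cells stayed unnamed.

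Class levels are summed UMIs as CPM with exact Poisson intervals, shares have Clopper-Pearson intervals and ratios exact conditional intervals. For a count of 0 the floor is 3 counts. Molecules of 1 cell are not independent samples of a genotype, so intervals cover counting error only. Depth before filtering was 173934025 and 137527647 UMIs. A level at or below 10% of the highest class was taken as within reach of free RNA. Intervals were tested on simulated data. Named were the 6 members, the 2 highest and 2 lowest genes of each list in the main classes, and the 5 genes most alike in level, except a few genes that are not reported here. Members, lists and markers were chosen with earlier results of these data known. Alternatives were cell filters, doublets, resolution, members in the clustering, naming by cell, averaging and subcluster weighting. Other tools were scipy 1.17.1, leidenalg 0.10.2 and matplotlib 3.10.9.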

Additional observations from a re-analysis of the deposited data

Results flagged for a closer look

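Cxcl2 and Cxcl3 had ratios on both sides of 1 between classes of the same libraries, with counting intervals that did not include 1. The differences between classes were not tested, since each group had 1 library. For Cxcl2 the ratio, knockout over control, was 2.70 in neutrophil-like and 7.79 in fibroblast-like cells, whereas tumour-like cells gave 0.664, macrophage-like cells 0.520 and plasma cell-like cells 0.284. The fibroblast-like value rested on 170 of 192 UMIs from 1 cell with 65 UMIs of neutrophil markers. The plasma cell-like value kept its direction in 5 of 9 alternatives. Of its 539 control UMIs 538 lay in cluster 30, beside 4818 of S100a9 and 2488 of Krt19. For Cxcl3 the ratio was 1.37 in neutrophil-like cells, whereas tumour-like cells gave 0.508, macrophage-like cells 0.257 and plasma cell-like cells 0.145, and the neutrophil-like value was 0.528 with subclusters weighted alike. For both genes all tumour-like and plasma cell-like levels and the knockout macrophage-like ones were within the reach set here for free RNA. Its part was not tested.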

How the results depend on the processing

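No paired analysis was possible because each group was 1 pooled library with no replicate to pair or leave out. Depth limits the neutrophil-like values most, with medians of 1709 and 1874 UMIs per cell. Under the strict filter Scrublet called 0 control doublets, so the caller did not work there, and the Cxcl2 ratio in neutrophil-like cells was 9.70. Causes of the shifts below were not tested.

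With the strict cell filter the Cxcl15 ratio in tumour-like cells was 0.774, Cxcl2 in monocyte/macrophage-like cells 0.448 and Cxcr2 in neutrophil-like cells 0.969. The tumour-like share of UMIs was then 75.4% and 84.0% for Cxcl1 and 83.1% and 88.1% for Cxcl15 (control and knockout), and the neutrophil-like share 9.18% and 42.7% for Cxcl2, 3.12% and 25.2% for Cxcl3, and 71.8% and 62.3% for Cxcr2. With the loose filter the macrophage-like ratios were 0.725 for Cxcl2 and 0.466 for Cxcl3, control tumour-like shares 83.9% (Cxcl1) and 97.5% (Cxcl15), and neutrophil-like Cxcl2 shares 64.6% and 82.2%. Without doublet removal Cxcl2 ratios were 0.423 (macrophage-like) and 2.91 (neutrophil-like), control tumour-like shares 84.5% (Cxcl1) and 98.1% (Cxcl15), and neutrophil-like shares 55.7% and 76.2% (Cxcl2), 45.9% in knockout (Cxcl3), and 88.9% and 80.7% (Cxcr2).

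Leiden resolution 2 gave ratios of 0.751 (Cxcl15, tumour-like) and 0.469 (Cxcl2, macrophage-like) and knockout tumour-like shares of 92.8% (Cxcl1) and 98.7% (Cxcl15), and resolution 0.5 gave 89.4% and 94.5%. Members among the variable genes gave 0.467 (Cxcl2, macrophage-like). Naming each cell from its own markers gave 0.748 (Cxcl15, tumour-like), 0.192 (Cxcl3, macrophage-like) and 3.21 (Cxcl2, neutrophil-like), knockout shares of 92.9% (Cxcl1) and 97.5% (Cxcl15) in tumour-like and 78.7% (Cxcl2) and 84.2% (Cxcr2) in neutrophil-like cells, and 14.8% of control Cxcl5 in mesothelial-like cells. The mean of per-cell CPM gave 1.9996 (Cxcl2) and 0.673 (Cxcr2) in neutrophil-like cells.

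Without the 1% richest cells the ratios were 0.682 (Cxcl15, tumour-like), 0.800 (Cxcl2) and 0.0915 (Cxcl3) in macrophage-like cells and 2.84 (Cxcl2, neutrophil-like). Subclusters weighted alike gave 0.897 (Cxcl15, tumour-like), 0.700 (Cxcl2, macrophage-like) and 1.39 (Cxcl2, neutrophil-like). The weighting outside the tumour class was chosen after seeing the data, as was leaving out the neutrophil subclusters led by Camp and by Fcer1a, which gave 1.73 (Cxcl2) and 0.606 (Cxcr2). Adding unnamed clusters nearest to the tumour class changed nothing, since none existed.

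Thinning to 2000 UMIs gave shares of tumour-like cells with a UMI of 5.06% and 4.21% (Cxcl1) and 16.4% and 11.1% (Cxcl15), and no thinning 18.3% and 17.5%, and 38.3% and 27.4%. In neutrophil-like cells 2000 UMIs gave 45.3% (Cxcl2, control) and 60.4% and 58.1% (Cxcr2), and no thinning 63.5% and 54.1% (Cxcr2). The Cxcl2 ratio in plasma cell-like cells turned from 0.284 to 35.7 (strict filter), 33.4 (no doublet removal), 35.7 (resolution 2) and 18.6 (own markers).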
